A study of Mus musculus with 6 samples.

Results

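The response of lung fibroblasts (FBs) to a single dose of bleomycin was set against the response to repetitive doses, each measured against its own PBS control. FBs were taken as barcodes with at least 2000 unique molecular identifiers (UMIs), no UMI of Ptprc, Pecam1 or Epcam, which mark leukocytes, endothelial and epithelial cells, and at least 3 UMIs of Col1a1, Col1a2 and Pdgfra together. The members were thus chosen by the UMIs of these marker genes, and the genes described were selected on the log2 ratios themselves, so the values that follow are a description. The rule kept 12014 of the 18951 barcodes in the 4 lung libraries, and the whole series holds 33286 barcodes in 6 libraries. All mice were male Pdgfra-GFP reporters of 10 to 14 weeks, in which GFP marks cells that express Pdgfra, and GFP+ lung cells of 3 pooled mice were sorted for each library. The single PBS and single bleomycin groups received 1 oropharyngeal dose 14 days before harvest, for which the labels name 2 U/kg of bleomycin in 1 place and 4 U/kg in another. The repetitive PBS and repetitive bleomycin groups received 3 weekly doses and were harvested 14 days after the last, and the bleomycin doses were 1 U/kg in the first and second weeks and 0.5 U/kg in the third. The exposures therefore differed in number of doses, dose and time since the first dose, and these cannot be told apart from the experiment in which each was run.

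Bleomycin breaks DNA and injures the alveolar epithelium, and in mice the lung fills with matrix-producing FBs in the following weeks. In the normal alveolus most Pdgfra FBs are lipofibroblasts (LipoFBs), which hold lipid droplets and express Tcf21, Npnt and Plin2, while matrix FBs (MatrixFBs) of the adventitia express Pi16, Dcn and Col14a1. Myofibroblasts (MyoFBs) of fibrotic lung secrete collagen, Cthrc1 and Postn and carry contractile proteins. A single dose is known to give a fibrosis that can resolve in young mice, and repeated doses are used to prolong it.

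The barcodes kept were 841 of 1060 (79.3%) from single PBS, 797 of 1015 (78.5%) from single bleomycin, 5096 of 6139 (83.0%) from repetitive PBS and 5280 of 10737 (49.2%) from repetitive bleomycin. They held 5905167, 10074418, 55984047 and 54589302 UMIs, with medians of 7039, 11594, 10517 and 8370 UMIs per barcode in the same order. Near the depth limit, 359 repetitive bleomycin barcodes that met the marker criteria lay within 200 UMIs below 2000 and 276 within 200 above it, against 2 to 19 below and 5 to 13 above in the other libraries. The repetitive libraries shared 28 barcode sequences, 12 of them among the FBs, and the other pairs of libraries shared at most 2. UMIs were summed over the FBs of a library and scaled to CPM (UMIs per 1000000), and a log2 ratio is bleomycin over PBS of the same exposure after adding 1 CPM. The difference is the single-dose log2 ratio minus the repetitive one. The 95% intervals in brackets are exact Poisson for a level and exact binomial for a share, take the outermost bounds of the 4 levels for a difference, and cover nothing but counting error. With 1 library per condition there was no replicate check, so no test was made and variation between animals was not measured. A log2 value of 1 or more, which is 2-fold, was counted as a change, and a count of such genes describes these libraries.

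RNA of other cells was unequal between the libraries. Scgb1a1, a secreted protein of club cells, stood at 699.7 CPM in the FB barcodes of single PBS and at 17.5, 22.2 and 48.4 CPM in single bleomycin, repetitive PBS and repetitive bleomycin, and 98.7% of the single PBS FBs held a UMI of at least 1 gene of other cell types (Lyz2, Igkc, Igha, Sftpc, Scgb1a1 or Cldn5). Igkc, an antibody chain, stood at 3.73, 11.6, 397 and 1186 CPM in the same order. The part of such RNA in the results was not tested, and values that bear on it are given beside them.

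Of 10008 genes with at least 50 UMIs in each exposure, 797 (7.96%) were at least 2-fold higher after the single dose and 654 (6.53%) after repetitive doses. At least 2-fold lower were 349 (3.49%) and 193 (1.93%). Higher in both exposures were 507 genes (5.07%), which is 63.6% of the genes higher after the single dose and 77.5% of those higher after repetitive doses, and 127 genes (1.27%) were lower in both, 36.4% of those lower after the single dose and 65.8% of those lower after repetitive doses. Across genes, which are not independent replicates, the log2 ratios had a Pearson r of 0.79 and a Spearman rho of 0.68. The median gene stood at 0.07 after the single dose and 0.10 after repetitive doses. No gene was 2-fold higher after the single dose and 2-fold lower after repetitive doses. The 2 genes with the opposite pattern, chosen after their values were seen, were Scgb1a1 and Scgb3a2, both secreted by club cells.

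**Figure D1:**
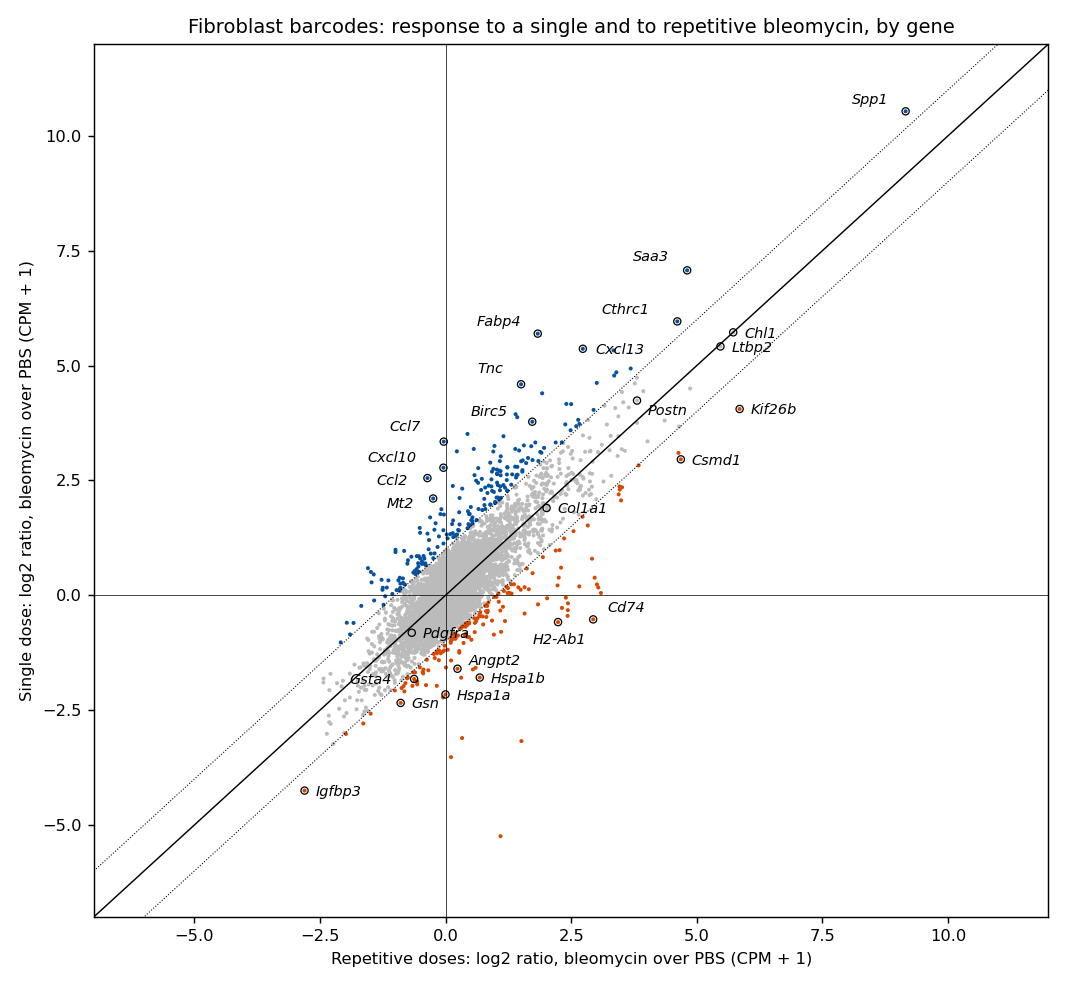
Each point is 1 of the 10008 genes, with the log2 ratio of bleomycin over PBS after repetitive doses on the x axis and after the single dose on the y axis (CPM + 1). The solid line marks equal ratios and the dotted lines a difference of 1, with the 207 genes above it in blue and the 155 below it in orange. Named genes are ringed and Spp1 stands highest on both axes.

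The genes higher in both exposures were led by Spp1, which encodes the secreted matrix protein osteopontin. Spp1 stood at 1.69 CPM in single PBS and 3993 CPM in single bleomycin, and at 1.41 CPM in repetitive PBS and 1375 CPM in repetitive bleomycin. The PBS levels were alike and the bleomycin levels differed, so the difference of 1.38 [0.55 to 2.17] lay in the bleomycin libraries. It turned to -0.39 without barcodes that carried adventitial markers, with at least 3 UMIs over Pi16, Dpp4, Col14a1, Ly6a and Clec3b. These were 73.1% to 82.7% of FBs, so the rule does not single out adventitial FBs. Cthrc1, a secreted MyoFB marker, went from 0.34 to 82.4 CPM after the single dose, from 2 to 830 UMIs, and from 0.48 to 35.2 CPM after repetitive doses, a difference of 1.35 [0.29 to 2.07], which turned to -0.28 without the same barcodes. Without those barcodes each PBS library held at most 16 UMIs of Spp1 or Cthrc1, so both turned signs rest on few counts. Postn, the matricellular protein periostin, went from 2.88 to 72.2 CPM and from 2.27 to 44.8 CPM. Its difference of 0.43 [-0.44 to 1.30] was within the counting error.

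The other genes named for being higher in both ranged from equal ratios to larger ones after either exposure. Ltbp2, which binds elastic fibres, had log2 ratios of 5.42 and 5.47, from 8.98 to 425 CPM after the single dose and from 10.6 to 513 CPM after repetitive doses. Grem1, an antagonist of bone morphogenetic proteins, had no UMI in either PBS library and stood at 21.6 and 28.2 CPM after bleomycin, at least 42.6-fold and at least 526-fold higher than the 3 UMIs per library that a count of 0 allows. Those 3 UMIs were 0.508 CPM in single PBS and 0.054 CPM in the deeper repetitive PBS, so these bounds do not compare the exposures. The difference of Grem1 was -0.37 [-1.32 to -0.02]. Chl1, a cell adhesion molecule, had no UMI in single PBS and was at least 102-fold higher in single bleomycin, at 51.8 CPM, and went from 0.39 to 72.7 CPM after repetitive doses. Thbs4, a thrombospondin of the matrix, had no UMI in single PBS and was at least 40.8-fold higher at 20.7 CPM, and reached 15.9 CPM after repetitive doses from 0.11 CPM. Lcn2, a siderophore-binding protein of the acute phase, went from 4.91 to 156 CPM and from 5.27 to 86.8 CPM, with the larger ratio after the single dose and a difference of 0.93 [0.23 to 1.64]. It was 0.07 without barcodes that carried adventitial markers. It was -1.72 without those holding RNA of other cell types, where only 11 single PBS FBs were left. Over all 507 genes higher in both, 329 had the larger ratio after the single dose, and the median ratios were 1.94 and 1.64. Over all genes compared, the difference was above 0 in 46.6%.

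Among the genes lower in both exposures, Igfbp3, a binding protein of insulin-like growth factors, had the lowest ratios of those named. It stood at 619.8 CPM in single PBS and 31.6 CPM in single bleomycin, and at 507 and 71.6 CPM in the repetitive libraries, a difference of -1.44 [-1.71 to -1.18]. Gsta3, a glutathione transferase, went from 697 to 99.1 CPM and from 741 to 151 CPM. Gria1, a glutamate receptor subunit, Mapt, the microtubule protein tau, Kcna2, a potassium channel, and Colq, a collagen tail of acetylcholinesterase, all had log2 ratios between -3.23 and -2.12 in both exposures. Slc7a10, an amino acid transporter, alone of the 10 genes named for being lowest in both had the lower ratio after repetitive doses, at -2.07 and -2.31, and Cox8b, a respiratory chain subunit, and Colgalt2, a collagen galactosyltransferase, had ratios between -2.99 and -2.02. Of the 127 genes lower in both, 93 were lower after the single dose, with median ratios of -1.64 and -1.39. Over all genes compared, the difference was above 0 in 46.6%. The markers that chose the barcodes are given as a description. Pdgfra went from 518 to 293 CPM after the single dose and from 597 to 374 CPM after repetitive doses, and Col1a1 from 864 to 3225 CPM and from 695 to 2803 CPM. Col1a2 went from 1193 to 3927 CPM and from 1125 to 3568 CPM.

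The difference reached at least 1 in 207 genes (2.07%) and at most -1 in 155 genes (1.55%). Of the 207 genes, 73 were 2-fold higher in both exposures, 78 after the single dose only, and 17 were 2-fold lower after repetitive doses only. In 44.0% of them single PBS stood at least 2-fold below repetitive PBS, against 20.9% of all genes, and in 41.1% single bleomycin stood at least 2-fold above repetitive bleomycin, against 5.31%. Of the 155 genes, 45 were 2-fold higher after repetitive doses only and 48 were 2-fold lower after the single dose only. Single PBS stood at least 2-fold above repetitive PBS in 29.0% of them, against 5.34% of all genes, and single bleomycin at least 2-fold below repetitive bleomycin in 43.2%, against 20.6%. Unequal levels of the PBS and the bleomycin libraries enter the difference by its definition, so an excess over all genes follows from how these genes were chosen. The levels in all 4 libraries are given for each gene below.

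Fibrosis-associated genes had the largest median ratio of the 22 lists, 3.46 after the single dose and 2.49 after repetitive doses, and 8 of the 19 genes compared had a difference of at least 1, with none at -1 or below, against 2.07% and 1.55% of all genes. The median difference of 0.74 was 0.33 without barcodes that carried adventitial markers and 0.45 without those holding a Cthrc1 UMI, the latter left out after seeing the data. Tnc, which encodes the matricellular glycoprotein tenascin C, stood at 12.9 CPM in single PBS and 334 CPM in single bleomycin, and at 172 CPM in repetitive PBS and 489.9 CPM in repetitive bleomycin. Its bleomycin level was higher after repetitive doses, and its difference was 3.09 [2.69 to 3.50] with unequal PBS levels. Fn1, fibronectin, went from 487 to 4191 CPM and from 785 to 2946 CPM. Timp1, an inhibitor of matrix metalloproteinases, went from 114 to 1380.4 CPM and from 89.2 to 505 CPM. Thbs1, a thrombospondin that binds latent TGF-beta, had a log2 ratio of 1.34 after the single dose and -0.36 after repetitive doses, where PBS stood at 1202 CPM. In the other direction, Aspn, a small proteoglycan, went from 17.1 to 27.2 CPM and from 20.6 to 58.99 CPM.

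Cthrc1 was found in few barcodes. After each barcode was thinned to 2000 UMIs, 7.28% [5.57 to 9.31] of single bleomycin FBs and 3.16% [2.71 to 3.67] of repetitive bleomycin FBs held a Cthrc1 UMI. Of the 73 and 465 barcodes of the same depth limit with a Ptprc UMI, 2.74% and 1.72% held one. Such Ptprc barcodes can hold RNA of their own as well as free RNA, so they are a comparison and no measure of free RNA alone. The median depths of these Ptprc barcodes were 8386, 10080, 6453 and 5691 UMIs in single PBS, single bleomycin, repetitive PBS and repetitive bleomycin. Among PBS FBs, 0 of 841 (up to 0.44%) and 0.10% held one. Without thinning, the shares were 18.6% (148 barcodes) and 6.72% (355 barcodes). These barcodes held 54.9% and 65.1% of all Spp1 UMIs, 75.1% and 55.2% of Postn, 71.1% and 66.1% of Grem1, and 70.8% and 71.7% of Thbs4 in single and repetitive bleomycin. Over all genes, the FBs without them held 7499230 of 10074418 and 49157549 of 54589302 UMIs. Their share of all UMIs was thus also above the 18.6% and 6.72% of FBs that they made up. For Tnc the shares were lower, 34.6% and 18.5%, and for Acta2, smooth muscle actin, they were 59.1% and 22.0%. Their median depths were 15955 and 12691 UMIs, above those of the other FBs, and deeper barcodes more often hold a UMI of any gene.

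Spp1 was found more widely after the single dose. A Spp1 UMI was present in 59.7% [56.2 to 63.2] of thinned single bleomycin FBs and 11.6% [10.7 to 12.5] of repetitive bleomycin FBs, but also in 50.7% and 26.7% of barcodes with Ptprc UMIs. The share of FBs was above that of Ptprc barcodes after the single dose and below it after repetitive doses. In repetitive PBS, a Spp1 UMI was found in 0.12% of FBs and 4.88% of Ptprc barcodes, which can hold RNA of their own. How much was free RNA was not tested, so neither share of bleomycin FBs is read as a share of expressing FBs. Unthinned, the shares were 93.5% and 22.1%. Without thinning, the 10% of FBs with the most Spp1 UMIs held 91.5% and 99.2% of them, so most of the level came from few barcodes in each library. When barcodes with at least 3 UMIs over Pi16, Dpp4, Col14a1, Ly6a and Clec3b were left out, 185 single bleomycin and 1169 repetitive bleomycin FBs remained, and Spp1 stood at 8107 and 6039 CPM and Cthrc1 at 172 and 120.4 CPM. In these FBs the differences were -0.39 for Spp1 and -0.28 for Cthrc1, although both bleomycin levels were still higher after the single dose. Single and repetitive PBS then held 6 and 16 UMIs of Spp1 and 1 and 0 UMIs of Cthrc1, so the signs rest on few counts. That rule left out 73.1% to 82.7% of FBs, and the median depth of those left was 9979 UMIs in single and 4602 UMIs in repetitive bleomycin. When FBs with a UMI of Pi16 or Col14a1 at equal depth were left out instead, a choice made after seeing the data, 594 and 2959 FBs remained and Spp1 stood at 4830.4 and 2059 CPM, Cthrc1 at 85.3 and 45.9 CPM.

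**Figure D2:**
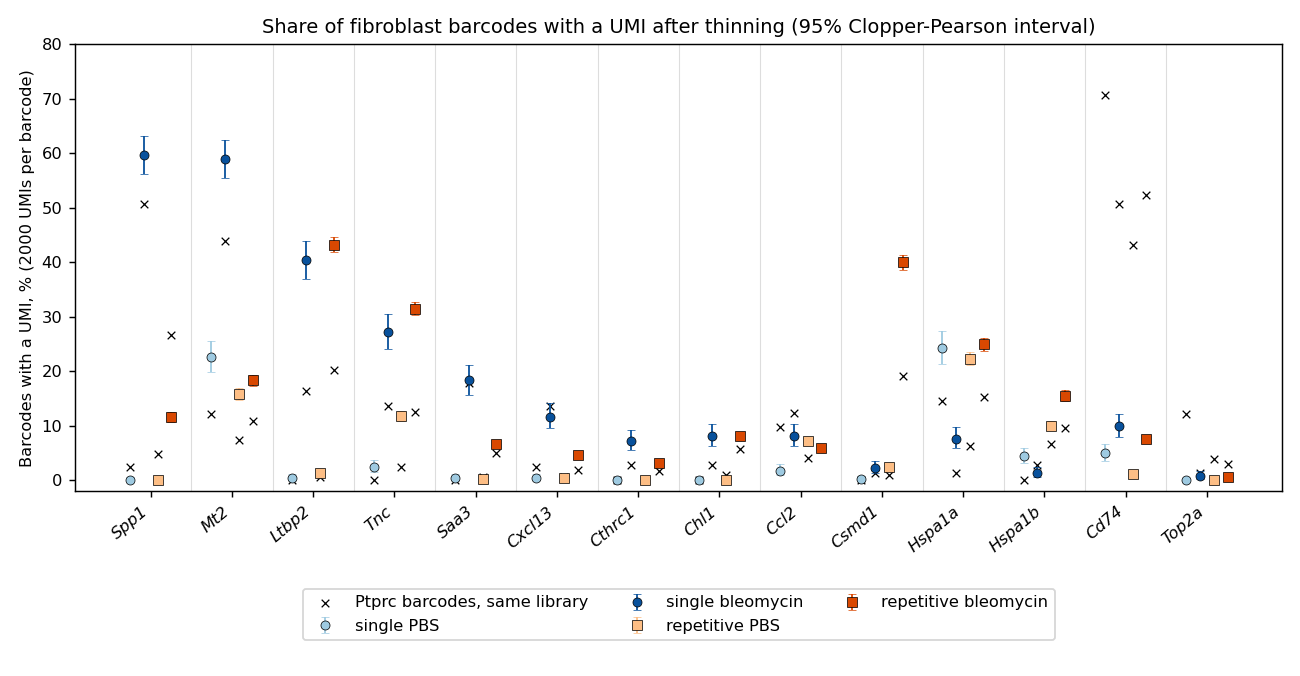
The y axis gives the percentage of FB barcodes with at least 1 UMI of each gene after thinning each barcode to 2000 UMIs, with 95% Clopper-Pearson intervals, for the 4 libraries. Black crosses give the share among barcodes with Ptprc UMIs in the same library. Csmd1 stands out in repetitive bleomycin at 39.96% and Mt2 in single bleomycin at 58.97%, while Cd74 is far more frequent in Ptprc barcodes of every library.

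Fibrillar collagens had close median ratios of 1.93 and 1.77, and 7 of 8 were 2-fold higher in each exposure, against 7.96% and 6.53% of all genes, with Col3a1 from 1426 to 5528 CPM and from 1234 to 5057 CPM. Col1a1 and Col1a2, which chose the barcodes, are on this list and among the 7, so the count is a description. Col5a2, a collagen that regulates fibril diameter, had the highest difference of the list at 0.96 [0.78 to 1.14], with PBS levels of 112 and 268 CPM and bleomycin levels of 809 and 990.0 CPM. Col24a1, a minor fibrillar collagen, had the lowest at -1.16 [-2.51 to -0.31], from 1 UMI in single PBS to 4.96 CPM and from 0.59 to 17.1 CPM. Elastic fibre genes had medians of 1.03 and 0.92. Eln, elastin, went from 787 to 5792 CPM and from 664 to 3185 CPM, and Lox, which crosslinks collagen and elastin, from 164 to 412 CPM and from 200.04 to 234 CPM, a difference of 1.10 [0.91 to 1.28]. Fbln1, a fibulin of elastic fibres, had a ratio of -0.27 after the single dose and 0.58 after repetitive doses. Basement membrane genes had medians of 1.32 and 0.67, no member differed by 1, and 9 of 11 differences were above 0, against 46.6% over all genes. Nid1, which links laminin to collagen IV, had the highest at 0.75 [0.52 to 0.98]. Genes of collagen folding and the endoplasmic reticulum had medians of 0.60 and 0.61, with P4ha3, a subunit of collagen prolyl hydroxylase, at 0.85 and 55.5 CPM in the single-dose libraries and 1.00 and 24.7 CPM in the repetitive ones, a difference of 1.25 that was 0.24 in thinned FBs.

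Contractile genes had median ratios of 1.44 and 1.00, and 10 of 12 differences were above 0, against 46.6% over all genes. The smooth muscle markers Myh11, Actg2, Des and Lmod1 belong to this list. Of 11 other genes, of pericytes and mesothelium, 5 could be compared, with medians of 3.12 and 1.45. Of these, 3 had a difference of at least 1, against 2.07% of all genes. Their summed level was 42.2, 115, 33.5 and 94.9 CPM in single PBS, single bleomycin, repetitive PBS and repetitive bleomycin. The part of smooth muscle cells, pericytes and mesothelial cells in the contractile genes was not tested. Acta2 went from 27.3 to 397 CPM after the single dose and from 19.3 to 144 CPM after repetitive doses, a difference of 0.98 [0.61 to 1.37]. The difference turned to -0.47 over all barcodes, was 0.30 without Cthrc1 barcodes and was 2.07 without adventitial-marker barcodes. It turned to -0.37 without barcodes holding RNA of other cell types, where only 11 single PBS FBs were left. Actg2, an enteric smooth muscle actin, and Cnn1, calponin, differed by 2.31 [1.04 to 3.39] and 2.28 [0.93 to 3.13], from PBS levels of at most 0.68 CPM to 17.5 and 10.1 CPM after the single dose and 2.49 and 1.59 CPM after repetitive doses. Myl9, a myosin light chain, had ratios of 0.79 and 1.03.

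Cell cycle genes had medians of 1.72 and 0.76, and 11 of 22 had a difference of at least 1, against 2.07% of all genes. The median difference was 0.92, and it was 1.04 when the single-dose ratio of the 2 members with no UMI in single PBS was taken as the bleomycin level over that of 3 UMIs, without the added 1 CPM. Birc5, which acts in chromosome segregation, went from 0.85 to 24.3 CPM and from 1.21 to 6.32 CPM, a difference of 2.05 [0.86 to 3.09]. Ube2c, which acts with the anaphase-promoting complex, went from 0.17 CPM, a single UMI, to 27.8 CPM and from 0.54 to 11.4 CPM. Mki67, a marker of proliferation, went from 1 UMI in single PBS to 9.33 CPM and from 0.39 to 6.98 CPM, a difference of 0.63 [-0.67 to 1.43]. Barcodes with a UMI of Mki67 or Top2a made up 0.12%, 4.77%, 0.41% and 1.65% of FBs in single PBS, single bleomycin, repetitive PBS and repetitive bleomycin. With these barcodes left out, the list's median difference was 0.28, and 170 genes in place of 207 had a difference of at least 1. The list's median difference was 0.37 with barcodes thinned to equal depth and 0.54 without Cthrc1 barcodes. It turned to -0.08 without barcodes holding RNA of other cell types, where only 11 single PBS FBs were left. Over all alternatives the members at 1 or above numbered 0 to 11. The shares were not thinned, and at 2000 UMIs per barcode Top2a was found in 0.75% [0.28 to 1.63] and 0.64% [0.45 to 0.90] of bleomycin FBs. It was found in 1.37% of 73 and 3.01% of 465 Ptprc barcodes, which can express it themselves.

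**Figure D3:**
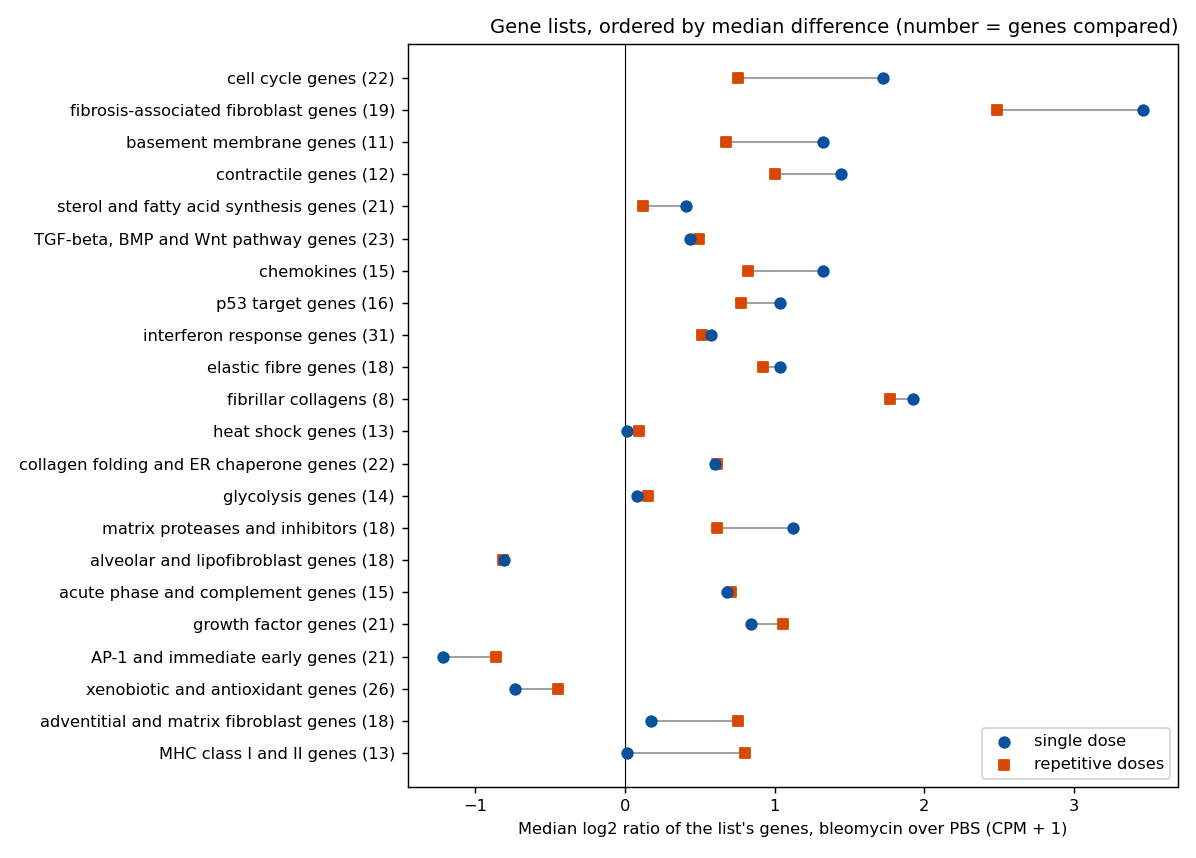
Medians over the genes of 22 lists are plotted on the x axis as log2 ratios of bleomycin over PBS, with circles for the single dose and squares for repetitive doses, joined by a line. Lists are ordered by the median of the differences, with cell cycle genes at the top and MHC genes at the bottom, and the number of genes compared is in parentheses.

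Chemokines had medians of 1.32 and 0.82, and 5 of 15 had a difference of at least 1, against 2.07% of all genes. Ccl2, which attracts monocytes, stood at 20.2 CPM in single PBS, 123 CPM in single bleomycin, 131 CPM in repetitive PBS and 102 CPM in repetitive bleomycin. Single PBS was low and the other libraries were close to each other. Ccl7, a related monocyte chemokine, was also lowest in single PBS but highest in single bleomycin, at 7.11, 81.4, 45.2 and 44.0 CPM, and Cxcl10, an interferon-induced chemokine, stood at 11.9, 87.1, 129 and 125 CPM. Their differences were 2.91 [2.51 to 3.32], 3.38 [2.78 to 4.00] and 2.82 [2.34 to 3.31]. Cxcl13, which attracts B cells, was low in both PBS libraries, at 9.82 and 12.4 CPM, and reached 445 CPM after the single dose and 88.0 CPM after repetitive doses. Cxcl12, which retains leukocytes and progenitors in tissue, differed the other way, from 269.8 to 733 CPM and from 86.5 to 379 CPM. Ccl8 stood at 4.91 and 25.8 CPM, then at 5.18 and 43.9 CPM. The shares of thinned FBs with a Ccl2 UMI, at 1.78%, 8.16%, 7.18% and 5.97%, were above the share of Ptprc barcodes in repetitive PBS alone.

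Other genes with a high repetitive PBS level were Homer1, a synaptic scaffold protein, and Errfi1, an inhibitor of the EGF receptor. Homer1 stood at 3.56, 5.86, 75.0 and 25.0 CPM and Errfi1 at 97.5, 139, 395 and 140 CPM in single PBS, single bleomycin, repetitive PBS and repetitive bleomycin. Both were lower in repetitive bleomycin than in repetitive PBS. Itga5, the fibronectin receptor subunit, and Vps8, of endosomal trafficking, were instead low in single PBS alone, at 5.08 and 5.59 CPM, with 25.0 to 33.3 CPM in the other libraries. Il6, a cytokine of the acute phase, was lower in both single-dose libraries, at 14.2, 39.6, 101 and 97.7 CPM.

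Of the acute phase and complement genes, 2 of 15 had a difference of at least 1, against 2.07% of all genes, and the medians were 0.68 and 0.71. Saa3, an acute phase protein, stood at 2.54 and 475 CPM in the single-dose libraries and 9.41 and 291 CPM in the repetitive ones, a difference of 2.26 [1.54 to 2.99]. It turned to -1.78 without adventitial-marker barcodes, where the bleomycin levels were 525 and 587 CPM and the PBS libraries held only 5 and 4 UMIs. A Saa3 UMI was found in 18.3% of thinned single bleomycin FBs, beside 17.8% of Ptprc barcodes, and in 6.70% beside 4.95% after repetitive doses. Hp, haptoglobin, responded alike, from 79.8 to 894 CPM and from 63.4 to 627 CPM. The complement genes C3, C4b, C1s1, C1ra and Cfb had ratios from -0.09 to 0.73 after the single dose and from 0.57 to 1.25 after repetitive doses, with the higher ratio after repetitive doses for each. C4b went from 259 to 430.3 CPM and from 367 to 874 CPM. Interferon response genes had medians of 0.57 and 0.52, and Zbp1, a sensor of nucleic acids, was the 1 of 31 with a difference of at least 1, near the share over all genes, from 6.77 to 58.8 CPM and from 7.04 to 25.7 CPM. The difference of Zbp1 was 1.21, and 0.36 without adventitial-marker barcodes.

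Fabp4, a fatty acid binding protein of adipocytes, endothelium and macrophages, had the highest difference of the named genes, 3.86 [2.70 to 4.51]. It had 1 UMI in single PBS and stood at 59.6 CPM in single bleomycin, 1.46 CPM in repetitive PBS and 7.79 CPM in repetitive bleomycin. After thinning, 2.38% of single bleomycin FBs held it, as did 2.74% of Ptprc barcodes, and after repetitive doses 0.95% beside 8.17%. FB barcodes with at least 3 UMIs of the mesothelial genes Msln, Upk3b and Lrrn4 held 11 (1.83%) of its UMIs in single bleomycin (6 barcodes), 40 (48.8%) in repetitive PBS (4 barcodes) and 102 (24.0%) in repetitive bleomycin (6 barcodes). Slpi, a protease inhibitor of epithelia, stood at 1.19, 31.1, 6.39 and 18.9 CPM in single PBS, single bleomycin, repetitive PBS and repetitive bleomycin, and 10.2% of its single bleomycin UMIs came from the 6 such barcodes of that library. Lgals7, a galectin of squamous epithelia, had no UMI in single PBS and was at least 39.5-fold higher in single bleomycin, at 20.1 CPM, and reached 3.06 CPM after repetitive doses. Without the mesothelial-marker barcodes, left out after seeing the data, 198 genes had a difference of at least 1.

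The metallothioneins Mt1 and Mt2, which bind zinc and copper and respond to metals, glucocorticoids and oxidative stress, were both higher after the single dose and lower after repetitive doses. Mt2 stood at 384 CPM in single PBS and 1658 CPM in single bleomycin, and at 202 CPM in repetitive PBS and 169.8 CPM in repetitive bleomycin, a difference of 2.35 [2.22 to 2.49]. Mt1, named here beside Mt2 although it met no naming rule, stood at 764, 1519.9, 1056 and 528 CPM, a difference of 1.99 [1.89 to 2.08]. Single bleomycin was the highest library for both. A Mt2 UMI was found in 22.6% [19.8 to 25.6], 58.97% [55.5 to 62.4], 15.8% [14.8 to 16.8] and 18.3% [17.3 to 19.4] of thinned FBs, and in 12.2%, 43.8%, 7.32% and 11.0% of Ptprc barcodes. The genes are neighbours on chromosome 8. Their 250 bases before the RefSeq start of transcription (build GRCm38.p6, plus strand) are shown because both genes were highest in single bleomycin, with matches to TGCGCNC or TGCACNC, the core of the metal response element, in capitals on either strand. Mt1 is at chr8:94178839-94179088 and Mt2 at chr8:94172368-94172617.

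Mt1: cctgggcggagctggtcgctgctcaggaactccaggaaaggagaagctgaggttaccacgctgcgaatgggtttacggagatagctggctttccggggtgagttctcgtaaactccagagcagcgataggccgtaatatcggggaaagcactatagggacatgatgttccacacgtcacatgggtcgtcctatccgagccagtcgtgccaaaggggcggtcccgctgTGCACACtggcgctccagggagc
Mt2: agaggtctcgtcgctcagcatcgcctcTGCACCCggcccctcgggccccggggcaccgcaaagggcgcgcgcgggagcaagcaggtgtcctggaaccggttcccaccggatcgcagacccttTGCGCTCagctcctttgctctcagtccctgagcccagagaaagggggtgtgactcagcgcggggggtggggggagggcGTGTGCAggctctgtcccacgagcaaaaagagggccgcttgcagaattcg

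Mt1 held 1 match and Mt2 held 3. At least 1 match was found in 21.4% of the 32851 promoters of this table, and at least 3 in 1.26%. A match is a run of letters and was not measured as a bound site.

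The list of xenobiotic and antioxidant genes to which both belong went mostly the other way. Of its 26 genes compared, metallothioneins included, 20 had a difference below 0 and 6 above 0, against 46.6% above 0 over all genes, with medians of -0.74 after the single dose and -0.45 after repetitive doses. Gsta4, a glutathione transferase that acts on lipid peroxidation products, went from 21.5 to 5.36 CPM and from 17.1 to 10.7 CPM, a difference of -1.20 [-1.97 to -0.42]. Gstm1, of the mu class of the same enzymes, went from 1679 to 242 CPM and from 769.8 to 246 CPM. The bleomycin levels of Gstm1 were alike and its PBS levels were not.

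Hspa1a and Hspa1b, the inducible Hsp70 chaperones, were lower after the single dose only. Hspa1a stood at 221 CPM in single PBS, 48.7 CPM in single bleomycin, 221 CPM in repetitive PBS and 220.2 CPM in repetitive bleomycin. Single bleomycin was low and the other libraries were level, a difference of -2.16 [-2.41 to -1.90]. Hspa1b stood at 30.7, 8.14, 63.5 and 102 CPM, a difference of -2.47 [-3.05 to -1.90]. In thinned FBs a Hspa1a UMI was found in 24.3%, 7.65%, 22.3% and 25.0%. The genes are near-identical copies, and how reads that match both were counted was not examined, so the level of each alone is uncertain. Their 250 bases before the start are on the minus strand of GRCm38.p6, at chr17:34972157-34972406 for Hspa1a and chr17:34959239-34959488 for Hspa1b, and are shown to compare the copies, with GAANNTTC, a pair of heat shock units, in capitals.

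Hspa1a: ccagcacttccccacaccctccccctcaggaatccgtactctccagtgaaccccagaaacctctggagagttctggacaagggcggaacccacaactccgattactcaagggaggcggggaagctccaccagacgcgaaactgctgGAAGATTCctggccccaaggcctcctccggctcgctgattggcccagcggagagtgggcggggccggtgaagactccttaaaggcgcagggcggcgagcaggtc
Hspa1b: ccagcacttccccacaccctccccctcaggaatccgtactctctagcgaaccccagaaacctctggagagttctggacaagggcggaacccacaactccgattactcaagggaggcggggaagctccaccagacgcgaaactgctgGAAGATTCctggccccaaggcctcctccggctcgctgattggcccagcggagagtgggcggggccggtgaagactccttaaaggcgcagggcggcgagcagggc

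The sequences were identical at 247 of 250 positions. Each held 1 match, as did 6.69% of promoters. The other heat shock genes did not share the pattern. Of 13 genes, only this pair had a difference of -1 or below, the medians were 0.01 and 0.09, and Hspa8, the constitutive member, stood at 664, 610.3, 659 and 726 CPM. Dnajb1, a partner of Hsp70, had ratios of -0.65 and -0.55, and Bag3, a regulator of Hsp70, had 0.09 and -0.64.

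AP-1 and immediate early genes, which respond within minutes to stress including tissue dissociation, were lower in bleomycin in both exposures, with medians of -1.22 and -0.86. At least 2-fold lower were 17 of 21 genes after the single dose and 8 after repetitive doses, against 3.49% and 1.93% of all genes. Fos stood at 2629.9 CPM in single PBS and 2642 CPM in repetitive PBS, and at 667 and 1479.5 CPM in the bleomycin libraries. Its PBS levels were level, and its difference was -1.14 [-1.22 to -1.07]. Jun went from 1510.2 to 522 CPM and from 2330.3 to 1342 CPM. Fosl2 differed the other way, at 41.3, 67.6, 121 and 82.7 CPM in single PBS, single bleomycin, repetitive PBS and repetitive bleomycin, a difference of 1.24 [0.88 to 1.61]. Its difference was 0.14 without barcodes holding RNA of other cell types, where only 11 single PBS FBs were left.

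**Figure D4:**
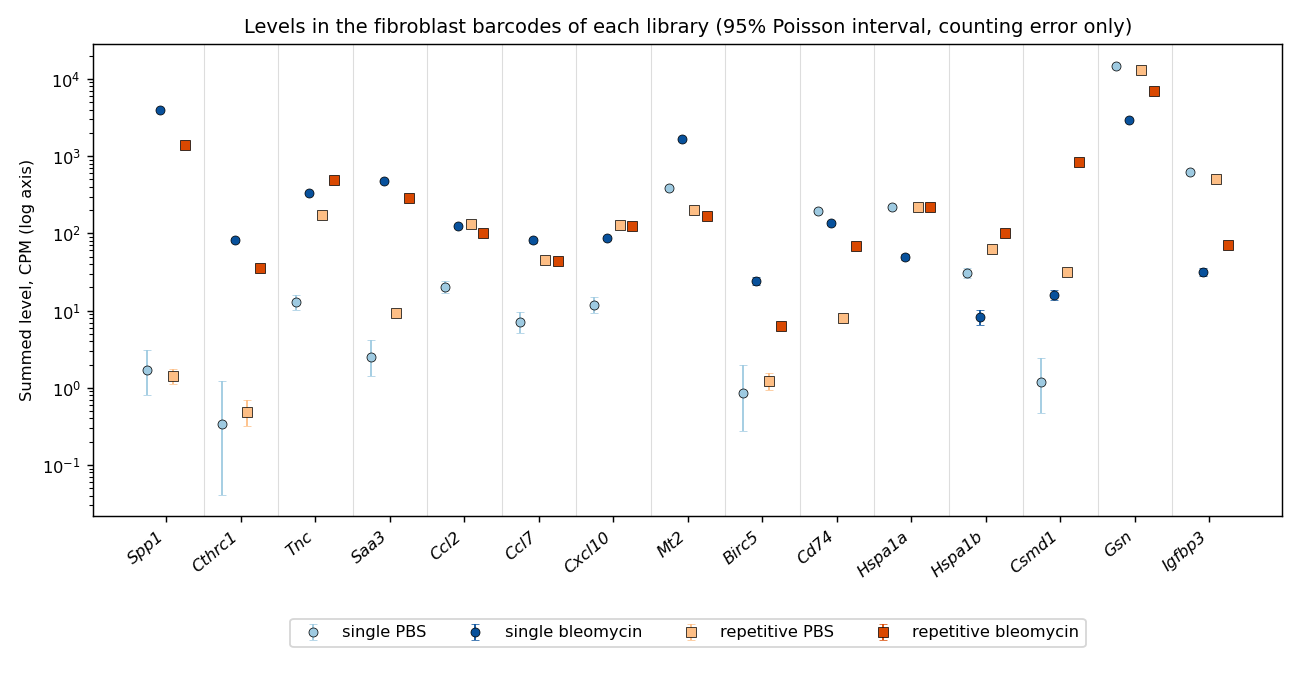
The y axis gives the summed level in CPM on a log axis with 95% Poisson intervals for 15 genes in the FBs of the single-dose libraries (circles) and the repetitive libraries (squares), with PBS in light and bleomycin in dark colours. Ccl2, Ccl7 and Cxcl10 were low in single PBS alone, Cd74 was low in repetitive PBS alone, and Hspa1a was low in single bleomycin alone.

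MHC genes stood at the other end of the lists. All 13 compared had a difference below 0, against 46.6% above 0 over all genes, and 6 were at -1 or below, against 1.55%. The medians were 0.02 and 0.80. Cd74, the invariant chain of MHC class II, stood at 197 CPM in single PBS, 136 CPM in single bleomycin, 7.97 CPM in repetitive PBS and 67.7 CPM in repetitive bleomycin, a difference of -3.46 [-3.79 to -3.14]. H2-Ab1, a class II beta chain, stood at 95.2, 63.1, 3.75 and 21.4 CPM, and H2-Aa and H2-Eb1 followed the same order. Repetitive PBS was the lowest library and single PBS the highest for all 4 genes in summed UMIs. In thinned FBs single bleomycin was above single PBS for all 4, Cd74 at 137 and 178 CPM and H2-Eb1 at 52.3 and 53.95 CPM, and repetitive PBS was again the lowest, at 6.77 and 2.75 CPM. Myeloid genes moved with them. Of 11 compared, 10 had a difference of -1 or below, again against 1.55%, among them Lyz2, lysozyme of macrophages, at 85.5, 96.2, 11.0 and 97.3 CPM, and C1qa, a complement subunit of macrophages, at 21.5, 15.5, 0.71 and 8.23 CPM, and none of the 11 was at 0 in any library. The summed level of the list was 5346.5, 2381, 5065 and 4094 CPM, most of it Apoe, which FBs also express. A Cd74 UMI was found in 4.99%, 9.91%, 1.12% and 7.61% of thinned FBs and in 70.7%, 50.7%, 43.2% and 52.3% of Ptprc barcodes. The share was below that of Ptprc barcodes in every library, and the part of free RNA and of other cells was not tested. Cd52, a leukocyte surface glycoprotein, was also lowest in repetitive PBS, at 19.5, 25.7, 1.07 and 8.87 CPM. Among class I genes, B2m, the light chain, had a difference of -0.20, and H2-Q7, a nonclassical class I gene, went from 6.604 to 36.4 CPM and from 4.25 to 57.0 CPM, a difference of -1.17 [-1.91 to -0.41].

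MatrixFB genes had the higher ratio after repetitive doses in 16 of 18 genes, with medians of 0.17 and 0.76, and 5 genes were at -1 or below, against 1.55% of all genes. Over all genes the higher ratio was after the single dose in 46.6%. Gsn, gelsolin, which severs actin filaments, stood at 14853 CPM in single PBS, 2924 CPM in single bleomycin, 13024 CPM in repetitive PBS and 7004 CPM in repetitive bleomycin, a difference of -1.45 [-1.48 to -1.42]. Single bleomycin was the lowest library. Pi16, a marker of adventitial FBs, went from 162 to 124 CPM and from 97.8 to 175 CPM, Clec3b, tetranectin, from 1004 to 468 CPM and from 962 to 948 CPM, and Dcn, decorin, from 1559 to 1388 CPM and from 2103 to 3165 CPM. After thinning, a Pi16 UMI was found in 8.68%, 13.4%, 7.93% and 20.02% of FBs and a Col14a1 UMI in 9.87%, 19.7%, 15.7% and 38.2% in single PBS, single bleomycin, repetitive PBS and repetitive bleomycin. In thinned FBs, where each barcode counts alike, Pi16 stood at 145, 186, 107 and 239 CPM, so its direction after the single dose turned with the weighting of barcodes. LipoFB genes had medians of -0.81 and -0.82, and no difference was past 1 in size. Of 18 differences, 13 were below 0 and 5 above 0, against 46.6% above 0 over all genes. Inmt, a methyltransferase, had the lowest difference of that list at -0.71, from 9141 to 1635 CPM and from 4678 to 1369 CPM. Tcf21, the transcription factor of LipoFBs, went from 602 to 197 CPM and from 448 to 186 CPM, and Plin2, which coats lipid droplets, from 133 to 101 CPM and from 258 to 102 CPM, the highest difference of the list at 0.94 [0.69 to 1.19]. Hsd11b1, which activates glucocorticoids, went from 1514 to 690.4 CPM and from 1367 to 617 CPM.

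Other genes named for their low differences had the higher ratio after repetitive doses, most of them with few UMIs in the single-dose libraries. Csmd1, a large membrane protein with complement control domains, stood at 1.19 CPM in single PBS, 15.98 CPM in single bleomycin, 31.8 CPM in repetitive PBS and 842 CPM in repetitive bleomycin. Each repetitive library was above its single-dose counterpart, and the difference was -1.72 [-2.68 to -0.87]. With 7 UMIs in single PBS, the added 1 CPM lowers the single-dose ratio, and no smaller addition was tried. A Csmd1 UMI was found in 39.96% [38.6 to 41.3] of thinned repetitive bleomycin FBs and 2.26% [1.34 to 3.55] of single bleomycin FBs, with 19.1% and 1.37% of Ptprc barcodes. Kif26b, a kinesin that acts in Wnt5a signalling, went from 0.34 to 21.2 CPM and from 0.43 to 81.6 CPM. Kcnk3, a potassium leak channel, stood at 8.13, 9.43, 3.07 and 24.7 CPM. Mlana, a melanosome protein, and Lamc3, a laminin chain, stood at 20.2 and 36.3 CPM in repetitive bleomycin, with at most 18.2 CPM elsewhere. Entpd2, an ectonucleotidase, went from 49.3 to 33.1 CPM and from 42.6 to 97.9 CPM, but from 49.3 to 56.5 CPM and from 51.1 to 141 CPM in thinned FBs. Angpt2, a ligand of the Tie2 receptor, went from 33.0 to 10.2 CPM and from 28.5 to 33.8 CPM. The experiments were counted with different gene annotations, with 30830 and 30828 gene rows in the single-dose libraries and 32285 in the repetitive ones. Whether the models of the genes named here differed, and what part this had in their levels, was not tested. Lama2, a laminin chain, had unequal levels and close ratios, at 64.9 and 82.4 CPM in the single-dose libraries and 581 and 746 CPM in the repetitive ones, with ratios of 0.34 and 0.36 and a difference from -0.82 to 0.27 over the alternatives.

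Growth factor genes had medians of 0.84 and 1.05, and 4 of 21 were at -1 or below, against 1.55% of all genes. Pdgfra, which chose the barcodes, is on this list but not among the 4. Mdk, midkine, a heparin-binding growth factor, went from 93.1 to 247 CPM and from 43.7 to 259.9 CPM, and Ptn, its relative pleiotrophin, from 10.5 to 6.85 CPM and from 6.47 to 13.2 CPM. Igfbp2, which binds insulin-like growth factors, had no UMI in single PBS and was at least 77.2-fold higher in single bleomycin, at 39.2 CPM, and went from 0.71 to 16.4 CPM after repetitive doses. Of the TGF-beta, BMP and Wnt genes, Tgfb3, a TGF-beta ligand, went from 103 to 117 CPM and from 45.0 to 106 CPM, a difference of -1.03 [-1.32 to -0.74]. Its difference was -0.09 without barcodes holding RNA of other cell types, where only 11 single PBS FBs were left. Id1, a target of BMP signalling, differed the other way, from 60.1 to 99.0 CPM and from 50.5 to 46.3 CPM. The list had medians of 0.43 and 0.49 but a median difference of 0.27, opposite in sign to the difference of the medians.

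Proteases were divided. Adamts4, an aggrecanase, went from 2.88 to 20.8 CPM and from 18.8 to 29.2 CPM, a difference of 1.89 [1.01 to 2.76], and Ctsk, cathepsin K, a collagen-degrading protease, from 19.3 to 85.5 CPM and from 22.4 to 186 CPM, a difference of -0.91 [-1.36 to -0.44]. The list's medians were 1.12 and 0.62, while its median difference was -0.09. Target genes of p53, which responds to DNA damage, had medians of 1.03 and 0.77 and 1 of 16 with a difference of at least 1, against 2.07% of all genes. Psrc1, a spindle protein and p53 target, had the highest difference of those named, from 2.03 to 22.5 CPM and from 1.54 to 11.1 CPM, and Cdkn1a, the p21 inhibitor of the cell cycle, went from 102 to 312 CPM and from 149.8 to 288 CPM. Sterol and fatty acid synthesis genes had medians of 0.41 and 0.12. Glycolysis genes had medians of 0.08 and 0.15, with no member past 1 in either exposure. Slc2a1, a glucose transporter, and Pfkp, a phosphofructokinase, marked the ends of that list at 0.67 and -0.45.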

How the data were processed

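GFP+ lung cells of 4 conditions were profiled by droplet single-cell RNA sequencing, with 1 library of 3 pooled mice each. The authors aligned reads and counted UMIs with Cell Ranger 3.0.1 (GRCm38, or mm10 in the labels) and deposited the counts per gene symbol and barcode without normalization. The methods of the study name a Chromium 3' kit and a Gencode release without saying whether these hold for the repetitive libraries too. The symbols of 303 genes differed between the experiments, so the same gene annotation was not used for both. The tables had 30830, 30828, 32285 and 32285 gene rows, and 20490 symbols were shared. Doublets were not called, and no mitochondrial filter was set (2.59% to 3.42% of FB UMIs).

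UMIs were summed over the FBs of a library with Python 3.11.15, numpy 2.4.6, pandas 2.3.3 and scipy 1.17.1, and compared as in the text. Genes needed 50 UMIs in each exposure. Depth was 5905167 to 55984047 UMIs per library, and the intervals cover counting error only. With 1 library per condition no test was made. The barcode rule used Col1a1, Col1a2 and Pdgfra, and the difference of log2 ratios ranked the genes, so both are descriptions. The members and lists were chosen with earlier results of these data known. Genes named were, among those with 20 CPM in at least 1 library that are on no list of other cell types and are no predicted, ribosomal, mitochondrial, haemoglobin or immunoglobulin gene, the 15 highest and 15 lowest differences, the highest and lowest of each of 22 lists, up to 10 moved in opposite directions (there were 0), the 10 highest in both and the 10 lowest in both, and the 3 markers. Other genes named are list members given as further examples, chosen after their values were seen. In all, 7 lists of other cell types were also summed. For genes just inside the limit, with 50 to 59 UMIs in the smaller exposure, 12.5% of 281 differed by 1, and just outside it, with 40 to 49 UMIs, 10.4% of 298. Promoter sequences are from RefSeq, and those of Mt1, Mt2, Hspa1a and Hspa1b are shown. Ccl2 and Ccl7 had no entry in the promoter set used. The script was tested on simulated counts. The 2 organoid libraries were not used. The alternatives were 14 planned ones and 4 added after seeing the data. Some genes that the naming rule chose are not reported here.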

Additional observations from a re-analysis of the deposited data

Results flagged for a closer look

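For 7 of the named genes, which exclude genes of other cell types such as Scgb1a1, the log2 ratios had opposite signs in the exposures with counting intervals on either side of 0, at least 1 ratio past 1 and a difference of 2 or more. With 1 library per condition the difference between exposures was not tested. After the single dose Ccl2 was higher by 2.55 and Mt2 by 2.11, with ratios of -0.36 and -0.25 after repetitive doses and differences of 2.91 and 2.35. Cd74, H2-Ab1, H2-Eb1 and H2-Aa had differences of -3.46, -2.82, -2.76 and -2.59, with ratios from -0.58 to -0.28 after the single dose and from 2.24 to 2.94 after repetitive doses. In FBs thinned to equal depth these 4 genes were instead higher in single bleomycin than in single PBS, Cd74 by the most at 178 against 137 CPM, so the opposite signs did not hold there. Hspa1b had a difference of -2.47, with ratios of -1.79 and 0.68.

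The single PBS table has a row for eGFP, which was not analysed in the other 3 lung libraries and entered no comparison. It held 4881 UMIs, 4431 of them in FBs, or 750.4 CPM [728.4 to 772.8]. An eGFP UMI was found in 94.5% [92.8 to 96.0] of FBs (Clopper-Pearson) and in 39.0% of barcodes with Ptprc UMIs. A tdTomato row of the same table held 0 UMIs.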

How the results depend on the processing

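No paired analysis was possible because the labels give no replicate numbers and each condition has 1 library, so no replicate could be left out. Of 43 named genes with a difference past 1, 39 kept their sign in each of the 18 alternatives that gave a value, and 25 also stayed past 1. Besides the genes given with such values in the report, the value nearest to 0 was 0.74 for Adamts4, 0.88 for Birc5, -0.34 for Cd52, -0.80 for Entpd2, -0.47 for Fos, -0.65 for Gsta4, 0.31 for Igfbp2, -0.96 for Igfbp3 and Mlana, and 0.39 for Lox. Cthrc1 (-0.28), Spp1 (-0.39) and Saa3 (-1.78) turned without adventitial-marker barcodes, where 185 to 1169 FBs were left per library. Each PBS library then held at most 16 UMIs of any of these genes, so the turned signs rest on few counts. H2-Aa (3.51) turned without barcodes holding RNA of other cell types, where 11 single PBS FBs with 44389 UMIs were left. This last setting gave 945 genes higher after the single dose, 470 higher after repetitive doses, 167 raised and 43 lowered in both, and r = 0.36, values that rest on those 11 barcodes. Counts of the same kinds were 128, 82 and 204 (raised) with barcodes thinned to 2000 UMIs, 63, 52, 164 and 66 with 10 CPM added, and 96, 67 and 252 (raised) with at least 200 UMIs per gene. With 1 UMI per gene, 340 and 314 were higher after the single and repetitive doses. Without adventitial-marker barcodes 195 genes were lowered in both. The correlation was 0.75 when thinned, 0.77 with 10 CPM, 0.81 with 200 UMIs, 0.72 with 1 UMI, 0.78 with at least 10 UMIs of the 3 markers, 0.74 over all barcodes, 0.77 with the mean CPM per barcode, 0.81 with technical genes left out, 0.81 without adventitial-marker barcodes, 0.77 without Cthrc1 barcodes and 0.81 without Pi16 or Col14a1 barcodes. Over all barcodes 46.7% of genes past 1 were higher after the single dose, against 57.2% over FBs. The median difference of MHC genes ran from -1.18 to -0.49, of MatrixFB genes from -0.76 to -0.44, of fibrosis-associated genes from 0.33 to 1.11 and of cell cycle genes from -0.08 to 0.98, with 0 to 11 members at 1 or above. Their cause was not tested. Depth limits genes near 50 UMIs, where 1 in 8 differed by 1.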

Other observations

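Symbols that differ between the experiments were matched through RefSeq synonyms after seeing the data, which added 187 genes, 4 of them at least 1 higher after the single dose and 0 after repetitive doses. Ccn4, a matricellular protein counted as Wisp1 in the single-dose tables, went from 8.13 to 101 CPM after the single dose and from 6.68 to 42.7 CPM after repetitive doses. Ccn2, connective tissue growth factor, counted as Ctgf, stood at 131 and 136 CPM in the single-dose libraries and at 391 and 267 CPM in the repetitive ones, so its level was highest in repetitive PBS. Ccn1, of the same family and counted as Cyr61, went from 1085 to 592 CPM and from 1303 to 464 CPM. Pimreg, a gene of dividing cells counted as Fam64a, had no UMI in single PBS and reached 11.6 CPM in single bleomycin, and went from 0.14 to 1.89 CPM after repetitive doses.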
